A study of Mus musculus with 26 samples.

Results

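Matrix metalloproteinases (MMPs), ADAMTS proteases and tissue inhibitors of metalloproteinases (TIMPs) were followed in cells of 3 murine EML4-ALK lung cancer lines. The members were the lines of the deposited count table whose symbol, ignoring case, is Mmp, Adamts or Timp followed by a number, with an optional letter after an Mmp number. This rule found 46 of 55391 symbols, which were 23 Mmp, 19 Adamts and 4 Timp genes. Low counts removed 16 of them, and 30 were tested. Cultures of EA1, EA2 and EA3 received 100 nM alectinib, an inhibitor of the ALK kinase, or its solvent, 0.1% DMSO. All 3 lines come from lung tumors of C57BL/6 mice in which an adenovirus with Cas9 and guide RNAs against Eml4 and Alk made the fusion gene. EA2 was made in another laboratory than EA1 and EA3. Each condition had 1 library per line and day, on days 1, 2, 3 and 5, so that the 4 days of a line served as its replicates and p-values measure the spread between days of 1 culture series.

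MMPs are zinc endopeptidases that are secreted as inactive precursors or held at the cell surface, and together they can cleave most proteins of the extracellular matrix. ADAMTS proteases are secreted and act on proteoglycans such as aggrecan and versican, on the propeptides of fibrillar collagens and on other matrix proteins. TIMPs bind the active site of MMPs, and Timp3 also inhibits several ADAMTS proteases and is itself held in the matrix. In tumors, these enzymes are known for their part in the remodelling of stroma and in invasion.

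Library totals of the 24 libraries ran from 5780062 to 11732401 counts, and 3 counts, taken as the floor of detection, came to 0.251 to 0.53 CPM, which are counts relative to library size, here scaled with the TMM factors of edgeR. Each library of days 1 to 5 correlated most with its own line (mean Pearson r over all genes tested, 0.942 to 0.982, against 0.825 to 0.894 with the other lines). The 2 further libraries labelled EA3 day 7 correlated better with EA2 (0.957 in DMSO and 0.973 in alectinib) than with EA3 (0.87 and 0.861), and were not used for the values below. Of 7 epithelial markers, 7, 6 and 7 were above 3 counts in at least 1 DMSO library of EA1, EA2 and EA3. Of 6 markers of alveolar type 2 cells, Sftpa1 had no count in any group and Sftpc, the defining surfactant gene, had at most 3 counts in each library. Above 3 counts in at least 1 DMSO library were 1, 1 and 2 of them in EA1, EA2 and EA3, and 1 with alectinib in each line. The 6 summed to at most 1.42 CPM, and the highest count was 10, for Napsa in EA1 with alectinib. The 8 fibroblast markers had a summed CPM of 9.08 to 44.1 in DMSO and 126 to 478 in alectinib in EA1. In EA2 the sum was 58.5 to 71.5 in DMSO and 122 to 239.8 in alectinib, and in EA3 10.2 to 20.2 in DMSO and 84.8 to 274 in alectinib. Of these 8, 3, 5 and 3 were above 3 counts in at least 1 library of DMSO and 7, 5 and 6 with alectinib, and Lum had no count in DMSO in any line. The summed epithelial markers came to 4642 to 9267 in DMSO and 3258 to 5382 in alectinib in EA1, to 1811 to 2696 in DMSO and 567 to 1169.6 in alectinib in EA2 and to 4776 to 7038 in DMSO and 3126 to 7195 in alectinib in EA3. Krt8, Krt18 and Krt19 made up most of these sums, while the mean CPM of Cdh1, E-cadherin, in EA1, EA2 and EA3 was 547, 65.3 and 645 in DMSO and 665, 189.8 and 1035 in alectinib. The mean CPM of Cldn4 in EA3 was 123 in DMSO and 366 in alectinib, and Epcam in EA2 had a mean of 0.494 in DMSO and no count in alectinib. Endothelial and leukocyte markers summed to at most 9.39 and 95.4 CPM. Cd68 led the leukocyte sum in each group and reached 91.6 CPM in EA3 DMSO. Ptprc, Adgre1, Itgam and Cd3E had at most 4 counts in a library, while S100A8 and Ly6G reached 30 in EA3 DMSO. The part of these marker shifts in the results below was not tested. In bulk RNA, a changed share of cells and a changed level per cell cannot be told apart.

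Mmp13 and Mmp10, the members that fell in all 3 lines, belong to a cluster of 10 Mmp genes on chromosome 9 (GRCm38, 7272514 to 7699585), in the order Mmp13, Mmp12, Mmp1B, Mmp3, Mmp1A, Mmp10, Mmp8, Mmp27, Mmp20 and Mmp7. Promoters of this cluster are known for AP-1 sites, at which Fos and Jun proteins bind. The 120 bases before the transcription start in RefSeq (GRCm38.p6) are shown, 5′ to 3′, for both genes, for their neighbour Mmp3, which was not called, and for Timp3 and Mmp14, which rose. They were chosen after the values were seen. Capitals mark AP-1 letters (TGACTCA), PEA3 letters (AGGAAG) and forkhead letters (GTAAACA), on either strand, and no marked stretch overlaps another.
Mmp13 (chr9:7272394-7272513, + strand): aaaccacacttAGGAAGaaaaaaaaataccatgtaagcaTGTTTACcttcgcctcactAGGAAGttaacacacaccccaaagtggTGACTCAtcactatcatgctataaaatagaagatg
Mmp10 (chr9:7502222-7502341, + strand): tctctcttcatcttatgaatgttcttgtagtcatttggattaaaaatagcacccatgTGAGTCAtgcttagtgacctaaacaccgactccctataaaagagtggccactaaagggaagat
Mmp3 (chr9:7445702-7445821, + strand): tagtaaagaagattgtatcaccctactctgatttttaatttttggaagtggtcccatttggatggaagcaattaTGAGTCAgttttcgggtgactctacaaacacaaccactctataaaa
Timp3 (chr10:86300292-86300411, + strand): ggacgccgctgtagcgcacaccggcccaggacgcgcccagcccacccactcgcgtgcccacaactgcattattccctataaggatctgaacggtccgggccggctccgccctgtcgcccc
Mmp14 (chr14:54431478-54431597, + strand): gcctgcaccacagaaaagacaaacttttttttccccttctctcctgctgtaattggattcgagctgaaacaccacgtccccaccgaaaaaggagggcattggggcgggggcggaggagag

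RefSeq promoter windows of 300 bases, 250 before the start and 50 from it, were matched for 32 of the 46 members. AP-1 letters stood in the windows of 7 members (Mmp13, Mmp12, Mmp1B, Mmp3, Mmp1A, Mmp10 and Mmp7), which is 7 of the 10 in the chromosome 9 cluster and 0 of the other 22, while 5.2% of all 32851 windows held them. They began 35 bases before the start in Mmp13, 63 in Mmp10 and 46 in Mmp3, and Mmp1A, Mmp1B and Mmp7 of these 7 had no library above the floor of 3 counts. PEA3 letters, a short motif, stood in the windows of 15 members and in 35.35% of all windows, and forkhead letters in 3 members (Mmp10, Mmp13 and Adamts13) and 3.65% of all. Counted from the start, PEA3 letters stood at -204 in Timp3, -209 in Mmp14 and -183 in Mmp3, outside the bases printed above. Forkhead letters at -199 in Mmp10 lay outside them as well. A match of letters is not a measured site.

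Which members changed with alectinib was asked within each line. More members rose than fell in each line, and 10 passed in all 3 (10.2% of all genes tested did): Adamts1, Adamts5, Adamts6, Mmp11, Mmp14, Mmp15, Timp2 and Timp3 were higher, and Mmp10 and Mmp13 were lower. Across lines, 27 of the 30 passed in at least 1 line, as did 53.2% of all genes tested, and Mmp3, Mmp23 and Adamts10 in none. Members were called by edgeR's quasi-likelihood test at an adjusted p-value of 0.05, in a fit that blocks on the line and day. In EA1, 19 of 30 members (63.3%) were higher and 3 (10%) lower with alectinib, against 19.0% and 14.6% of all 14264 genes tested. In EA2, 10 of 30 members (33.3%) were higher and 4 (13.3%) lower with alectinib, against 13.0% and 11.3% of all 14264 genes tested. In EA3, 16 of 30 members (53.3%) were higher and 3 (10%) lower with alectinib, against 17.5% and 15.1% of all 14264 genes tested. Of the 30, 7 (Adamts15, Adamts16, Mmp8, Mmp12, Mmp16, Mmp17 and Mmp23) would not pass the low-count filter over the DMSO libraries alone and were tested only with the alectinib libraries counted, so that a call higher there supports nothing. The other 23 members were counted apart, and 15, 10 and 12 were higher and 3, 4 and 3 lower in EA1, EA2 and EA3, against 17.6, 13.1 and 16.8% and 16.1, 12.5 and 16.7% of 12886 genes, and their median log2 fold changes were 1.39, 0.78 and 0.88. This count was added after the data were seen. Of these 23, all alectinib libraries lay above all DMSO libraries for 12, 9 and 10 in EA1, EA2 and EA3, and below them for 3, 5 and 0, against 16.9, 14.3 and 11.9% and 14.3, 13.8 and 11.8% of the same genes. Median log2 fold changes of the tested members were 1.47, 0.74 and 1.48 for EA1, EA2 and EA3, and those of all genes tested were 0.06, 0 and 0.07. With the 2, 4 and 1 members that had no count in DMSO set at a bound from 3 counts a library where alectinib exceeded it, the medians were 1.47, 0.74 and 1.41. In EA3, 19 members were called in the joint fit and 11 when that line was fitted alone, where Adamts1, Adamts15, Mmp10 and Timp1 lost the call and Adamts2, Adamts16, Mmp2 and Mmp12 were removed with the low counts. Scaling by library size alone would move the median of all genes to 0.16 in EA1, -0.04 in EA2 and 0.18 in EA3.

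**Figure D1:**
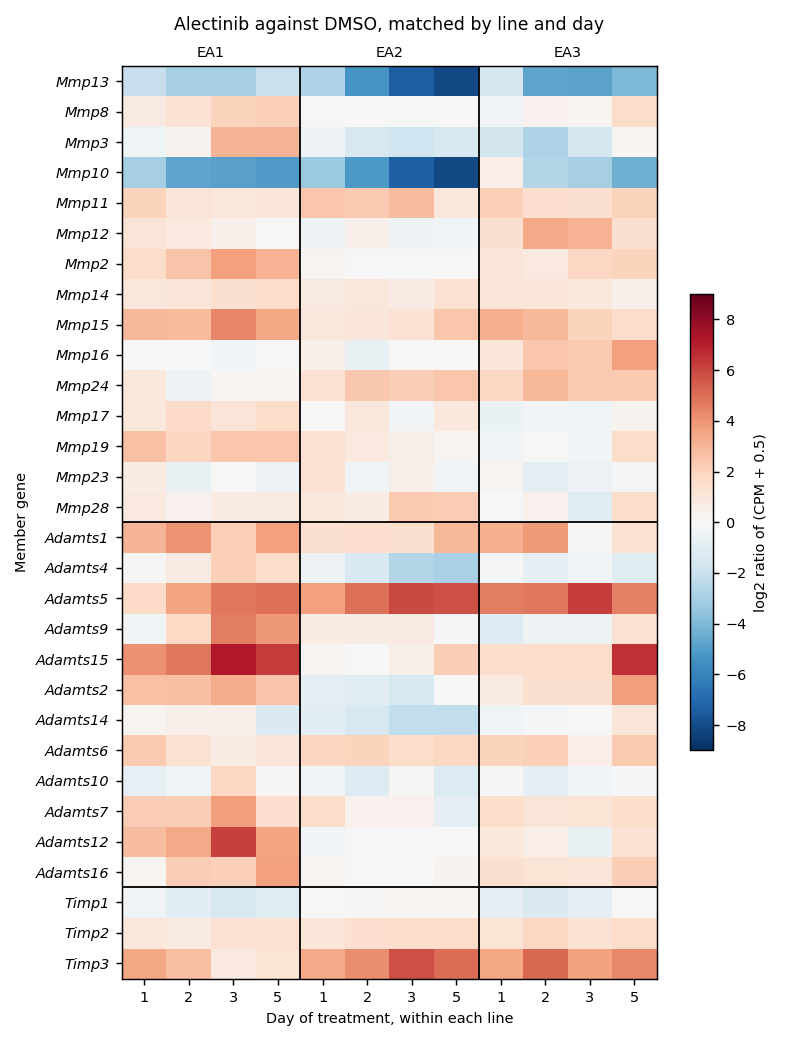
The log2 ratio of CPM + 0.5, alectinib against DMSO, of each of the 30 tested members (rows, in the groups MMPs, ADAMTS and TIMPs) in each line and day (columns), red for higher and blue for lower with alectinib. Mmp13 and Mmp10 form the blue rows, with the lowest ratios of -8.10 and -8.12 in EA2, and only day 1 of EA3 is slightly red for Mmp10, while Adamts5 and Timp3 are red in every line and day.

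Mmp13 and Mmp10, a collagenase and a stromelysin gene of chromosome 9, held the largest falls among the members. Mmp13, a collagenase that cleaves fibrillar collagen, fell with ratios of the DMSO to the alectinib mean of 6.5, 54.1 and 19.5 in EA1, EA2 and EA3. Mmp13 in EA1 stood at 59.4, 174, 448 and 138 CPM in the DMSO libraries of days 1, 2, 3 and 5, and at 13.9, 21.7, 55.7 and 34.7 CPM in the alectinib libraries of the same days. Mmp13 in EA2 stood at 158, 288, 828 and 659 CPM in DMSO and 22.8, 6.72, 4.29 and 1.91 CPM in alectinib. Mmp13 in EA3 stood at 25.3, 404, 678 and 1084 CPM in DMSO and 8.59, 14.3, 23.9 and 65.6 CPM in alectinib. For Mmp13, alectinib libraries lay below all DMSO libraries in EA1 and EA2 and overlapped with them in EA3. In EA3, the DMSO library of day 1 was the low one, and the alectinib library of day 5 the high one. For Mmp13, the fitted log2 fold changes in EA1, EA2 and EA3 were -2.53, -5.99 and -3.92, with standard errors of 0.70, 0.90 and 0.79 and adjusted p-values of 0.0151, 0.000413 and 0.00249. Without day 2, the EA1 call was lost (adjusted p = 0.0568), as it was without day 3 (0.0793).

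Mmp10, a stromelysin that cleaves proteoglycans and can activate other MMPs, fell with DMSO to alectinib ratios of the means of 26, 91 and 8.11 in EA1, EA2 and EA3. Mmp10 in EA1 stood at 34, 80.4, 57 and 81.6 CPM in DMSO and 3.86, 2.57, 1.45 and 1.84 CPM in alectinib. Mmp10 in EA2 stood at 44, 75.4, 307 and 232 CPM in DMSO and 3.95, 1.59, 1.35 and 0.337 CPM in alectinib. Mmp10 in EA3 stood at 1.7, 32.2, 61 and 33.3 CPM in DMSO and 2.77, 4.8, 7.15 and 1.08 CPM in alectinib. For Mmp10, alectinib libraries lay below all DMSO libraries in EA1 and EA2 and overlapped with them in EA3. In EA3, only day 1 was higher with alectinib, and its DMSO library was far below those of the later days. For Mmp10, the fitted log2 fold changes in EA1, EA2 and EA3 were -4.66, -6.23 and -2.65, with standard errors of 0.85, 0.95 and 0.84 and adjusted p-values of 0.00132, 0.000464 and 0.0292. The EA3 call of Mmp10 was lost when that line was fitted alone (adjusted p = 0.0647) and without day 2 (0.122), day 3 (0.138) or day 5 (0.118).

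Mmp3, the stromelysin gene between Mmp13 and Mmp10, passed in no line. Its level lay at 9.08 to 30.4 CPM in DMSO and 10.0 to 84.5 CPM in alectinib in EA1, 22.6 to 41.9 CPM in DMSO and 8.91 to 16.3 CPM in alectinib in EA2 and 24.2 to 139 CPM in DMSO and 7.3 to 157 CPM in alectinib in EA3. For Mmp3, the fitted log2 fold changes in EA1, EA2 and EA3 were 1.55, -1.31 and -1.50, with standard errors of 0.63, 0.57 and 0.59 and adjusted p-values of 0.0733, 0.118 and 0.0691. In EA1, Mmp3 was higher with alectinib on 3 of 4 days, in EA2 on 0 and in EA3 on 1. DESeq2 called Mmp3 in all 3 lines, higher in EA1 and lower in EA2 and EA3.

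Mmp12, macrophage elastase, was near the floor in DMSO and was called in EA3, where it was higher. Mmp12 in EA1 stood at 0.105, 0.557, 0.534 and 0.388 CPM in DMSO and 0.868, 1.47, 0.932 and 0.419 CPM in alectinib. Mmp12 in EA2 stood at 0.179, 0, 0.501 and 0.344 CPM in DMSO and 0, 0.177, 0.226 and 0.225 CPM in alectinib. Mmp12 in EA3 stood at 0, 0, 0 and 0.33 CPM in DMSO and 0.831, 4.69, 3.86 and 1.73 CPM in alectinib. For Mmp12, alectinib libraries lay above all DMSO libraries in EA3 and overlapped with them in EA1 and EA2. In EA3 the counts were 0, 0, 0 and 2 in DMSO and 9, 43, 41 and 16 in alectinib, a ratio of 45.6 with an exact 95% counting interval of 12.3 to 381. For Mmp12, the fitted log2 fold changes in EA1, EA2 and EA3 were 1.20, -0.78 and 5.06, with standard errors of 0.74, 0.98 and 0.93 and adjusted p-values of 0.221, 0.599 and 0.00128. The EA3 call of Mmp12 was lost without day 2. Mmp8, a collagenase first described in neutrophils, had 0, 3, 0 and 0 counts in DMSO and 4, 13, 15 and 20 in alectinib in EA1, a ratio of 15.4 (counting interval 4.98 to 77.1), and was called higher there (adjusted p = 0.0147). DESeq2 did not call Mmp8 in EA1, and the call was lost without day 3 or day 5. With EA1 fitted alone, Mmp8 was removed with the low counts. Mmp8 had no count in EA2 and at most 10 in a library of EA3, where it was not called. Mmp12 and Mmp8 passed the low-count filter only with the alectinib libraries counted, so that their higher calls support nothing.

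**Figure D2:**
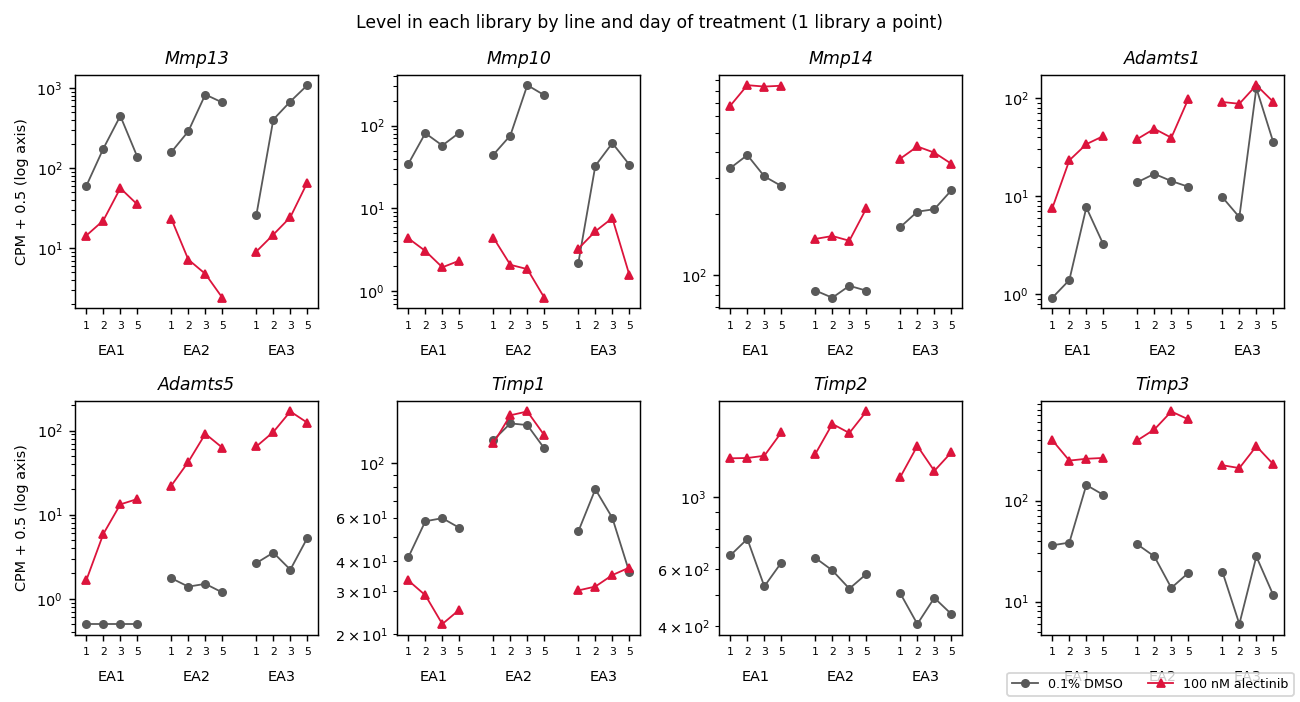
CPM + 0.5 on a log axis for 8 members in each library, with days 1, 2, 3 and 5 of each line from left to right, grey circles for DMSO and red triangles for alectinib. Mmp13 lies lower with alectinib on each day, while Mmp14, Adamts5, Timp2 and Timp3 lie higher, and Timp1 overlaps in EA2 and EA3.

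Of the 5 tested membrane-type MMPs, Mmp14 and Mmp15 rose in all 3 lines. Mmp14, the transmembrane protease that activates the precursor of Mmp2, had ratios of the alectinib to the DMSO mean of 2.47, 2 and 1.83 in EA1, EA2 and EA3. Mmp14 in EA1 stood at 334, 387, 305 and 273 CPM in DMSO and 676, 852, 839 and 847 CPM in alectinib. Mmp14 in EA2 stood at 83.7, 77.1, 88.3 and 83.6 CPM in DMSO and 150.1, 155, 147 and 212 CPM in alectinib. Mmp14 in EA3 stood at 172, 204, 210.1 and 260.0 CPM in DMSO and 372, 427, 398 and 351 CPM in alectinib. Mmp14 was thus higher in every alectinib library than in any DMSO library of the same line. The lines kept separate levels, with EA1 the highest and EA2 the lowest in either treatment. For Mmp14, the fitted log2 fold changes in EA1, EA2 and EA3 were 1.31, 0.98 and 0.88, with standard errors of 0.15, 0.15 and 0.15 and adjusted p-values of 5.14e-05, 0.000472 and 0.00085.

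Mmp15, another transmembrane protease, had ratios of the means of 10.0, 3.42 and 5.98 in EA1, EA2 and EA3. Mmp15 in EA1 stood at 14.2, 12.5, 3.42 and 8.01 CPM in DMSO and 111, 92.2, 83.9 and 95.1 CPM in alectinib. Mmp15 in EA2 stood at 3.13, 2.38, 1.8 and 2.41 CPM in DMSO and 6.91, 5.48, 5.08 and 15.7 CPM in alectinib. Mmp15 in EA3 stood at 24.8, 28.8, 17.3 and 37.2 CPM in DMSO and 243, 223, 69.5 and 111 CPM in alectinib. Mmp15 was thus higher in every alectinib library than in any DMSO library of the same line. For Mmp15, the fitted log2 fold changes in EA1, EA2 and EA3 were 3.46, 1.68 and 2.47, with standard errors of 0.35, 0.39 and 0.33 and adjusted p-values of 1.8e-05, 0.00637 and 0.000156.

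Mmp24, a transmembrane protease studied mostly in neurons, rose in EA2 and EA3 and was not called in EA1. Mmp24 in EA1 stood at 0.628, 0.891, 0.321 and 1.16 CPM in DMSO and 1.64, 0.49, 0.414 and 1.42 CPM in alectinib. Mmp24 in EA2 stood at 1.07, 0.297, 0.1 and 0.258 CPM in DMSO and 3.36, 3.89, 2.26 and 3.71 CPM in alectinib. Mmp24 in EA3 stood at 5.47, 3.03, 2.64 and 1.98 CPM in DMSO and 21.3, 27.5, 15.8 and 12.1 CPM in alectinib. For Mmp24, alectinib libraries lay above all DMSO libraries in EA2 and EA3 and overlapped with them in EA1. For Mmp24, the fitted log2 fold changes in EA1, EA2 and EA3 were 0.35, 3.05 and 2.57, with standard errors of 0.47, 0.47 and 0.39 and adjusted p-values of 0.589, 0.000422 and 0.00033. In EA1 and EA2, Mmp24 reached at most 3.89 CPM. Mmp16, also transmembrane, was called only in EA3 among the lines, at 0 to 0.538 CPM in DMSO and 1.66 to 5.95 CPM in alectinib. The fitted Mmp16 log2 fold change in EA3 was 3.38, with a standard error of 0.80 and an adjusted p-value of 0.0101. That call was lost without day 3. Mmp16 had at most 1 count in a library of EA1 and at most 3 in EA2. Mmp17, held by a lipid anchor, was called in EA1, at 0.223 to 0.905 CPM in DMSO and 1.06 to 3.85 CPM in alectinib. For Mmp17, the fitted log2 fold changes in EA1, EA2 and EA3 were 2.08, 0.74 and -0.75, with standard errors of 0.59, 0.64 and 0.76 and adjusted p-values of 0.0162, 0.433 and 0.473. Its EA1 call was lost without day 2, day 3 or day 5. Mmp16 and Mmp17 passed the low-count filter only with the alectinib libraries counted, so that their higher calls support nothing.

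Of the remaining MMPs, Mmp11 was called in all 3 lines. Mmp11, which is secreted after furin has activated it inside the cell, had ratios of the means of 2.41, 4.81 and 3.41 in EA1, EA2 and EA3. Mmp11 in EA1 stood at 21.8, 34.3, 44.4 and 55.6 CPM in DMSO and 89.3, 76.8, 88.8 and 121 CPM in alectinib. Mmp11 in EA2 stood at 25.6, 26.5, 45.6 and 46.9 CPM in DMSO and 146, 139.6, 317 and 92.9 CPM in alectinib. Mmp11 in EA3 stood at 19.8, 33.4, 25.5 and 26.5 CPM in DMSO and 89.5, 95.5, 68.7 and 105 CPM in alectinib. Mmp11 was thus higher in every alectinib library than in any DMSO library of the same line. In EA2, day 3 was the high alectinib library. For Mmp11, the fitted log2 fold changes in EA1, EA2 and EA3 were 1.32, 2.18 and 1.78, with standard errors of 0.26, 0.27 and 0.26 and adjusted p-values of 0.00199, 8.34e-05 and 0.00031. Of the exon bases of Mmp11, 5.58% overlap Chchd10 on the other strand, and the strand setting of the counts is not given.

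Mmp19, a secreted protease of basement membrane proteins, rose in EA1 and was not called in EA2 or EA3. Mmp19 in EA1 stood at 1.46, 7.91, 7.16 and 6.72 CPM in DMSO and 11.5, 31.5, 41.8 and 40.6 CPM in alectinib. Mmp19 in EA2 stood at 4.39, 5.2, 9.42 and 6.96 CPM in DMSO and 11.3, 10.1, 13.8 and 8.54 CPM in alectinib. Mmp19 in EA3 stood at 3.86, 7.58, 12.5 and 10.2 CPM in DMSO and 3.05, 7.2, 10.4 and 33 CPM in alectinib. For Mmp19, alectinib libraries lay above all DMSO libraries in EA1 and overlapped with them in EA2 and EA3. For Mmp19, the fitted log2 fold changes in EA1, EA2 and EA3 were 2.50, 0.78 and 0.26, with standard errors of 0.32, 0.31 and 0.32 and adjusted p-values of 9.43e-05, 0.0835 and 0.56. In EA2, Mmp19 was higher with alectinib on 4 of 4 days, and was called without day 5 and with no filter on low counts. In EA3, the alectinib library of day 5 stood above the others. Of its exon bases, 28.3% overlap Tmem198b on the other strand.

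Mmp2, a gelatinase that cleaves basement membrane collagen, was called higher in EA1, at 3.56 to 9.05 CPM in DMSO and 12.5 to 82.1 CPM in alectinib, and in EA3, at 0 to 0.659 CPM in DMSO and 0.554 to 4.22 CPM in alectinib. For Mmp2, the fitted log2 fold changes in EA1 and EA3 were 2.89 and 2.63, with standard errors of 0.35 and 0.51 and adjusted p-values of 0.000191 and 0.00309. In EA2, where Mmp14 and Timp2 rose, Mmp2 had 1 count in all 8 libraries together. Mmp28, a secreted protease of epithelia, was called higher in EA2. For Mmp28, the fitted log2 fold changes in EA1, EA2 and EA3 were 0.71, 1.97 and 0.23, with standard errors of 0.34, 0.43 and 0.36 and adjusted p-values of 0.118, 0.00449 and 0.667. Its level in EA2 lay at 1.12 to 2.81 CPM in DMSO and 2.12 to 16.6 CPM in alectinib. Mmp23, with a membrane anchor at its amino end, was below 2.2 CPM or at it in every library, with log2 fold changes of -0.19, 0.63 and -0.74 and no call.

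Among the ADAMTS proteases known to cleave aggrecan and versican, Adamts5 and Adamts1 rose in all 3 lines. Adamts5 had no count in the DMSO libraries of EA1, and its mean with alectinib was at least 25.2-fold higher than 3 counts a library. The ratio of the means was 56.4 in EA2 and 38.6 in EA3. Adamts5 in EA1 stood at 0 CPM in each library in DMSO and 1.16, 5.39, 12.7 and 14.8 CPM in alectinib. Adamts5 in EA2 stood at 1.25, 0.892, 1 and 0.687 CPM in DMSO and 21.6, 41.9, 90.9 and 62 CPM in alectinib. Adamts5 in EA3 stood at 2.15, 3.03, 1.72 and 4.78 CPM in DMSO and 64.1, 95.5, 168 and 123 CPM in alectinib. Adamts5 was thus higher in every alectinib library than in any DMSO library of the same line. For Adamts5, the fitted log2 fold changes in EA1, EA2 and EA3 were 9.25, 5.65 and 5.23, with standard errors of 0.92, 0.44 and 0.41 and adjusted p-values of 5.74e-05, 1.68e-05 and 1.55e-05. The fitted value of EA1 depends on the prior count and is no bound.

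Adamts1 had ratios of the means of 9.26, 4.02 and 2.3 in EA1, EA2 and EA3. Adamts1 in EA1 stood at 0.418, 0.891, 7.16 and 2.71 CPM in DMSO and 7.04, 22.7, 33.3 and 40.5 CPM in alectinib. Adamts1 in EA2 stood at 13.3, 16.3, 13.7 and 11.9 CPM in DMSO and 37.7, 48.1, 38.9 and 97.7 CPM in alectinib. Adamts1 in EA3 stood at 9.24, 5.6, 126 and 34.8 CPM in DMSO and 90.6, 86.9, 135 and 90.8 CPM in alectinib. For Adamts1, alectinib libraries lay above all DMSO libraries in EA2 and overlapped with them in EA1 and EA3. The DMSO library of EA3 day 3 stood far above the other DMSO libraries, close to the alectinib library of that day. For Adamts1, the fitted log2 fold changes in EA1, EA2 and EA3 were 3.48, 1.89 and 2.13, with standard errors of 0.63, 0.53 and 0.57 and adjusted p-values of 0.00133, 0.0206 and 0.0127. Without the block of line and day, the adjusted p-value of Adamts1 was 0.0561 in EA2 and 0.206 in EA3. The EA2 call was also lost without day 1 or day 5, and the EA3 call without day 1 or day 2 and when EA3 was fitted alone.

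Adamts4, another aggrecanase, was the member called in opposite directions, higher in EA1 and lower in EA2. Adamts4 in EA1 stood at 4.29, 6.8, 3.74 and 5.17 CPM in DMSO and 4.53, 12, 18.4 and 17.6 CPM in alectinib. Adamts4 in EA2 stood at 169.9, 165, 493 and 409 CPM in DMSO and 119, 62, 78.6 and 54.8 CPM in alectinib. Adamts4 in EA3 stood at 12.5, 36.4, 31.5 and 72.3 CPM in DMSO and 11.4, 19.2, 25.9 and 32.9 CPM in alectinib. For Adamts4, alectinib libraries lay below all DMSO libraries in EA2 and overlapped with them in EA1 and EA3. For Adamts4, the fitted log2 fold changes in EA1, EA2 and EA3 were 1.27, -1.88 and -0.63, with standard errors of 0.42, 0.39 and 0.38 and adjusted p-values of 0.032, 0.00328 and 0.219. The EA1 call of Adamts4 was lost with all 26 libraries (adjusted p = 0.0946) and without day 2 (0.0785), day 3 (0.213) or day 5 (0.118).

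Adamts9, which cleaves versican, was called higher in EA1, at 0.855 to 3.9 CPM in DMSO and 3.18 to 33.9 CPM in alectinib. For Adamts9, the fitted log2 fold changes in EA1, EA2 and EA3 were 2.68, 0.50 and -0.20, with standard errors of 0.71, 0.56 and 0.59 and adjusted p-values of 0.0113, 0.553 and 0.825. The EA1 call of Adamts9 was lost without day 3 or day 5. Adamts15 was called higher in EA1, at 0 to 1.23 CPM in DMSO and 11.8 to 90.2 CPM in alectinib, and in EA3, at 0 to 1.08 CPM in DMSO and 1.51 to 46.7 CPM in alectinib. For Adamts15, the fitted log2 fold changes in EA1 and EA3 were 6.67 and 3.68, with standard errors of 0.96 and 1.01 and adjusted p-values of 0.000687 and 0.0198. In EA3, day 5 held most of the rise, and the call was lost without it and when EA3 was fitted alone. Adamts15 passed the low-count filter only with the alectinib libraries counted, so that its higher calls support nothing. In EA2, Adamts15 had no count in DMSO and 1, 0, 2 and 16 counts with alectinib, and was not called.

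Adamts2 and Adamts14 remove the amino propeptide of fibrillar procollagens, a step before collagen fibrils form. Adamts2 rose in EA1 and EA3 and had a log2 fold change of -1.02 in EA2, where it was not called. Adamts2 in EA1 stood at 1.67, 3.23, 3.21 and 8.27 CPM in DMSO and 12.7, 23.4, 36.5 and 50.5 CPM in alectinib. Adamts2 in EA2 stood at 2.06, 2.23, 4.31 and 2.32 CPM in DMSO and 0.988, 0.884, 1.24 and 2.25 CPM in alectinib. Adamts2 in EA3 stood at 0, 0.117, 0.264 and 0.165 CPM in DMSO and 0.37, 1.2, 1.6 and 8.55 CPM in alectinib. Its EA3 counts were 0, 1, 2 and 1 in DMSO and 4, 11, 17 and 79 in alectinib. No DMSO library of EA3 was thus above the floor of 3 counts, and day 5 held most of the alectinib counts. With EA3 fitted alone, Adamts2 was removed with the low counts. For Adamts2, alectinib libraries lay above all DMSO libraries in EA1 and EA3 and overlapped with them in EA2. For Adamts2, the fitted log2 fold changes in EA1, EA2 and EA3 were 2.96, -1.02 and 3.97, with standard errors of 0.33, 0.36 and 0.55 and adjusted p-values of 3.63e-05, 0.057 and 0.000193. In EA2, Adamts2 was called lower without day 5 (adjusted p = 0.023), with DESeq2 size factors (0.049) and with library size alone (0.048).

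Adamts14 fell in EA2 and was not called in the other two lines. Adamts14 in EA1 stood at 5.33, 3.12, 4.17 and 15 CPM in DMSO and 6.27, 4.53, 6.01 and 5.7 CPM in alectinib. Adamts14 in EA2 stood at 47.6, 28.7, 59.1 and 53.5 CPM in DMSO and 23.9, 10.1, 12.3 and 11 CPM in alectinib. Adamts14 in EA3 stood at 2.15, 2.92, 6.86 and 3.13 CPM in DMSO and 1.57, 2.73, 6.68 and 7.14 CPM in alectinib. For Adamts14, alectinib libraries lay below all DMSO libraries in EA2 and overlapped with them in EA1 and EA3. For Adamts14, the fitted log2 fold changes in EA1, EA2 and EA3 were -0.05, -1.76 and 0.16, with standard errors of 0.36, 0.33 and 0.37 and adjusted p-values of 0.925, 0.00185 and 0.768. Adamts3, the third procollagen amino-proteinase gene, had at most 2 counts in a library.

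Of the other ADAMTS genes, Adamts6 was called in all 3 lines. Adamts6, close in sequence to Adamts10, had ratios of the means of 2.41, 4.05 and 3.34 in EA1, EA2 and EA3. Adamts6 in EA1 stood at 5.23, 11.3, 18.7 and 15.5 CPM in DMSO and 28.8, 30.1, 30.1 and 32.9 CPM in alectinib. Adamts6 in EA2 stood at 2.96, 2.38, 3.41 and 4.21 CPM in DMSO and 12.8, 11.1, 12 and 16.5 CPM in alectinib. Adamts6 in EA3 stood at 3.23, 2.92, 8.44 and 2.31 CPM in DMSO and 14.7, 14.6, 13.4 and 13.7 CPM in alectinib. Adamts6 was thus higher in every alectinib library than in any DMSO library of the same line. With alectinib, each line held a narrow range over the days, and DMSO day 3 of EA3 was the high library of its group. For Adamts6, the fitted log2 fold changes in EA1, EA2 and EA3 were 1.39, 2.02 and 1.89, with standard errors of 0.31, 0.32 and 0.33 and adjusted p-values of 0.00387, 0.000567 and 0.000843.

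Adamts10, which binds fibrillin microfibrils, lay at 4.28 to 17.1 CPM in DMSO and 9.55 to 18.9 CPM in alectinib in EA1, 15.6 to 24.8 CPM in DMSO and 6.54 to 19.9 CPM in alectinib in EA2 and 26.6 to 52.6 CPM in DMSO and 23.4 to 46.1 CPM in alectinib in EA3. For Adamts10, the fitted log2 fold changes in EA1, EA2 and EA3 were 0.16, -0.65 and -0.36, with standard errors of 0.37, 0.36 and 0.34 and adjusted p-values of 0.76, 0.216 and 0.453. It passed in no line. Adamts7 and Adamts12 cleave cartilage oligomeric matrix protein. Adamts7 was called higher in EA1, at 1.07 to 5.95 CPM in DMSO and 17.8 to 21.4 CPM in alectinib, and in EA3, at 4.04 to 8.24 CPM in DMSO and 13.3 to 25.3 CPM in alectinib. For Adamts7, the fitted log2 fold changes in EA1, EA2 and EA3 were 2.55, 0.43 and 1.46, with standard errors of 0.41, 0.39 and 0.38 and adjusted p-values of 0.000505, 0.462 and 0.0104. Without day 2, the EA3 call of Adamts7 was lost. Adamts12 was called higher in EA1, at 0.855 to 8.01 CPM in DMSO and 20.5 to 98.1 CPM in alectinib. The fitted Adamts12 log2 fold change in EA1 was 4.06, with a standard error of 0.60 and an adjusted p-value of 0.0005. In EA2, Adamts12 had at most 1 count in a library, and in EA3 its log2 fold change was 0.79 with an adjusted p-value of 0.504. Adamts16 had no count in any DMSO library. With alectinib it had 1, 15, 17 and 72 counts in EA1 and 9, 6, 6 and 17 in EA3, means at least 7.17-fold and 2.58-fold higher than 3 counts a library, and was called in both (adjusted p = 0.0101 and 0.0198). DESeq2 called it in neither, and without day 5 both calls were lost. With each line fitted alone, Adamts16 was removed with the low counts in EA1 and EA3. In the joint fit, Adamts16 passed the filter only with the alectinib libraries counted, so that its higher calls support nothing. Adamts17 was removed with the low counts. In EA1, it had 0, 0, 1 and 0 counts in DMSO and 3, 23, 37 and 23 with alectinib, a ratio of 76.4 (counting interval 13.3 to 3051), and it was called there when no filter was used.

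Of the inhibitors, Timp2 and Timp3 rose in all 3 lines and Timp1 fell in EA1 and EA3. Timp2, which inhibits MMPs and also takes part in the activation of Mmp2 by Mmp14, had ratios of the means of 2.18, 2.77 and 2.84 in EA1, EA2 and EA3. Timp2 in EA1 stood at 661, 743, 529 and 627 CPM in DMSO and 1322, 1325, 1346 and 1590.4 CPM in alectinib. Timp2 in EA2 stood at 649, 593, 521 and 578 CPM in DMSO and 1364, 1690.1, 1584 and 1847 CPM in alectinib. Timp2 in EA3 stood at 503, 404, 488 and 434 CPM in DMSO and 1157, 1445, 1208 and 1379 CPM in alectinib. Timp2 was thus higher in every alectinib library than in any DMSO library of the same line. For Timp2, the fitted log2 fold changes in EA1, EA2 and EA3 were 1.13, 1.47 and 1.50, with standard errors of 0.15, 0.16 and 0.16 and adjusted p-values of 0.000165, 2.89e-05 and 2.57e-05. Per length of its exons, Timp2 was the highest member in each line with alectinib, at 358 CPM per kb in EA1, 416 CPM per kb in EA2 and 333 CPM per kb in EA3. In DMSO, Timp2 stood at 164 CPM per kb in EA1, 150.2 CPM per kb in EA2 and 117 CPM per kb in EA3, below Mmp13 in EA2 (181) and EA3 (205).

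Timp3, the inhibitor held in the matrix, had ratios of the means of 3.55, 24.1 and 15.9 in EA1, EA2 and EA3. Timp3 in EA1 stood at 35.6, 37.9, 142 and 113 CPM in DMSO and 396, 249, 259 and 264 CPM in alectinib. Timp3 in EA2 stood at 36.4, 27.5, 13.1 and 18.7 CPM in DMSO and 395, 507, 765 and 638 CPM in alectinib. Timp3 in EA3 stood at 19.3, 5.48, 27.4 and 11 CPM in DMSO and 224, 209.6, 346 and 229 CPM in alectinib. Timp3 was thus higher in every alectinib library than in any DMSO library of the same line. In EA1, the DMSO libraries of days 3 and 5 stood above those of days 1 and 2. For Timp3, the fitted log2 fold changes in EA1, EA2 and EA3 were 2.05, 4.64 and 4.16, with standard errors of 0.47, 0.51 and 0.50 and adjusted p-values of 0.00516, 4.37e-05 and 8.87e-05. Of the exon bases of Timp3, 21.3% overlap Syn3 on the other strand.

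Timp1, a secreted inhibitor that binds most MMPs but is weak against membrane-type enzymes, lay at 40.8 to 59.2 CPM in DMSO and 21.5 to 32.7 CPM in alectinib in EA1, 115 to 145 CPM in DMSO and 120.3 to 163 CPM in alectinib in EA2 and 35.4 to 77.9 CPM in DMSO and 29.7 to 37 CPM in alectinib in EA3. For Timp1, the fitted log2 fold changes in EA1, EA2 and EA3 were -0.98, 0.11 and -0.72, with standard errors of 0.21, 0.20 and 0.21 and adjusted p-values of 0.00303, 0.737 and 0.0165. Its EA3 call was lost without day 2 or day 3, with all 26 libraries and when EA3 was fitted alone. Timp4 had at most 4 counts in a library and was not tested. Exon bases that overlap a gene on the other strand made up 13.6% of Mmp24, 12% of Mmp28, 12% of Adamts9, 3.56% of Adamts4, 2.17% of Mmp12 and 1.94% of Adamts7 as well.

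Whether the response differed between lines was tested with 1 test over the 3 alectinib effects, which 6 of the 30 members passed (20%, against 6.84% of all genes tested). They were Adamts2 (adjusted p = 0.000747), Adamts4 (0.0139), Mmp19 (0.0172), Adamts14 (0.0433), Mmp12 (0.0452) and Mmp24 (0.0456), whose values are given above. The log2 fold change of Adamts2 in EA2 minus that in EA1 was -3.98 (95% interval -5.02 to -2.93), and in EA3 minus EA2 it was 4.98 (95% interval 3.55 to 6.41). In EA3, Adamts2 had at most 2 counts in a DMSO library, within the floor. The log2 fold change of Adamts4 in EA2 minus EA1 was -3.14 (95% interval -4.37 to -1.92). Adamts14 differed by -1.71 (95% interval -2.75 to -0.67) for EA2 minus EA1 and by 1.92 (95% interval 0.86 to 2.99) for EA3 minus EA2, with adjusted p-values of 0.0519 and 0.0543, so that neither pair passed alone. For Mmp19, EA1 stood apart, with -1.72 (95% interval -2.66 to -0.78) for EA2 and -2.24 (95% interval -3.19 to -1.28) for EA3. Mmp24 differed by 2.69 (95% interval 1.24 to 4.15) for EA2 minus EA1, and by -0.48 (95% interval -1.71 to 0.75) for EA3 minus EA2. For EA3 minus EA1 it was 2.22 (95% interval 0.897 to 3.54), which did not pass alone (adjusted p = 0.0941). Mmp12, which passed the low-count filter only with the alectinib libraries counted, supports nothing here, and without it 5 members differed. Leaving out a day changed the number of members past this test to 7 without day 1, 1 without day 2, 1 without day 3 and 3 without day 5, and Adamts2 was past it each time. Adamts14, Mmp12 and Mmp19 lost the call without day 1, all but Adamts2 without day 2 or day 3, and Adamts4, Mmp12 and Mmp24 without day 5. DESeq2 called 12 members, these 6 and Adamts7, Adamts9, Mmp15, Mmp3, Timp1 and Timp3. With all 26 libraries, 2 members passed, and Adamts14, Adamts4, Mmp12 and Mmp24 lost the call. Without the block, 5 passed, with Adamts14, Mmp19 and Mmp24 lost and Timp1 and Timp3 gained. The share of all genes was not counted under these alternatives.

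**Figure D3:**
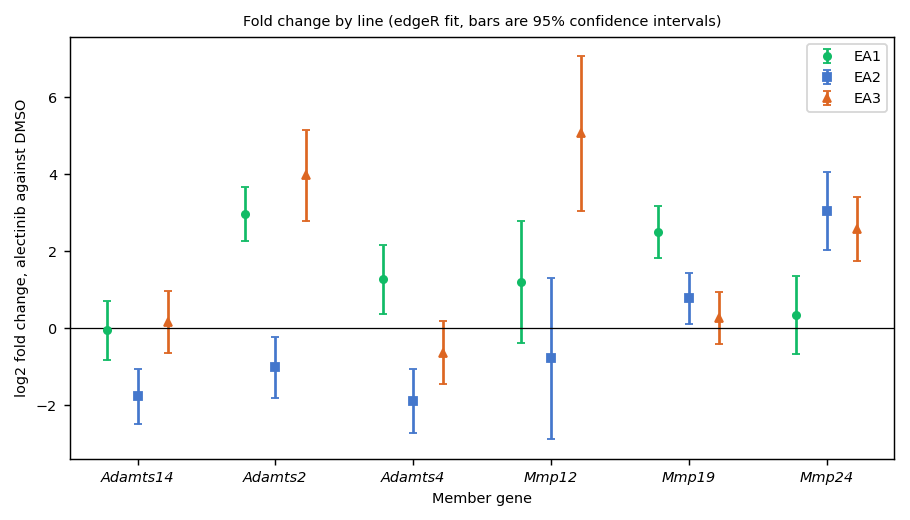
Fitted log2 fold changes, alectinib against DMSO, in EA1 (circles), EA2 (squares) and EA3 (triangles) for the 6 members whose effect differed between lines, with 95% confidence intervals. EA2 lies below 0 for Adamts2, Adamts4 and Adamts14 while EA1 is above 0 for Adamts2 and Adamts4, and EA1 lies lowest for Mmp24.

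Without drug, the lines held different repertoires of these genes. Over the 12 DMSO libraries, 17 of the 23 members tested there differed between lines (73.9%, against 39.7% of 12886 genes). Means are given ± SD over 4 days, and each line named as highest or lowest differed from both other lines. EA1 had the most Mmp14, at 325 ± 48.6, 83.2 ± 4.6 and 212 ± 36.5 CPM in EA1, EA2 and EA3, and the most Mmp28, at 28 ± 8.1, 1.68 ± 0.782 and 12.3 ± 5.54 CPM in EA1, EA2 and EA3. Mmp2 was measured at 5.59 ± 2.46, 0 ± 0 and 0.355 ± 0.296 CPM in EA1, EA2 and EA3. EA2 had the most Adamts4, at 5 ± 1.34, 309 ± 167 and 38.2 ± 25 CPM in EA1, EA2 and EA3. The log2 difference of Adamts4, EA2 minus EA1, was 5.91 (95% interval 4.67 to 7.16). Adamts14 was likewise highest in EA2, at 6.9 ± 5.47, 47.2 ± 13.2 and 3.77 ± 2.11 CPM in EA1, EA2 and EA3, as was Timp1, at 52.9 ± 8.34, 132 ± 14.8 and 56.2 ± 17.6 CPM in EA1, EA2 and EA3. EA3 had the most Mmp15, at 9.53 ± 4.84, 2.43 ± 0.545 and 27 ± 8.32 CPM in EA1, EA2 and EA3, and the most Mmp24, at 0.751 ± 0.361, 0.432 ± 0.436 and 3.28 ± 1.53 CPM in EA1, EA2 and EA3, and the least Adamts2, at 4.1 ± 2.88, 2.73 ± 1.06 and 0.136 ± 0.11 CPM in EA1, EA2 and EA3. Timp3 was highest in EA1, at 82.3 ± 54, 23.9 ± 10.2 and 15.8 ± 9.61 CPM in EA1, EA2 and EA3. Mmp3, Adamts1, Adamts5, Adamts6, Adamts9, Adamts10 and Adamts12 also differed. Without day 5, Adamts1, Adamts12, Mmp3 and Timp3 lost that call, and without day 2, Adamts6, Adamts10 and Adamts12 did. The members that did not pass were Mmp10 (adjusted p = 0.0588), Mmp11 (0.287), Mmp13 (0.352), Mmp19 (0.578), Adamts7 (0.0754) and Timp2 (0.0777). With the day as a block, Mmp10 and Adamts7 passed as well. For Mmp13, the log2 difference of EA2 minus EA1 was 1.18 (95% interval -0.62 to 2.98), so that a wide range of differences is left. EA2 differs from the other lines in its laboratory of origin, which cannot be told apart from other differences between the lines.

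**Figure D4:**
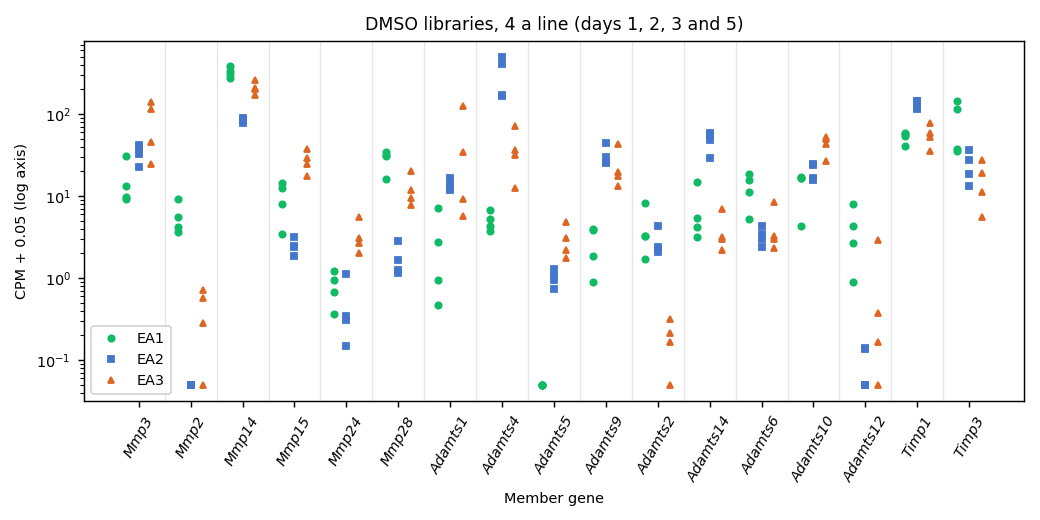
CPM + 0.05 on a log axis in the DMSO libraries of EA1 (circles), EA2 (squares) and EA3 (triangles), 4 libraries a line, for the 17 members that differed between lines. The EA2 squares lie above the others for Adamts4, Adamts14 and Timp1, and the EA1 circles for Mmp14, Mmp2 and Mmp28 lie above those of EA2.

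Whether the alectinib effect grew or shrank with time was tested as its slope on log2 day, which is the change per doubling of the days. Mmp10 in EA3 was the 1 member that passed, with a slope of -2.29 (SE 0.31, adjusted p = 0.0387). It lay at 1.7 CPM in DMSO on day 1 and at 33.3 on day 5 while alectinib went from 2.77 to 1.08. No member passed in EA1 or EA2 in the main edgeR fit, where 5 and 7 had an unadjusted p below 0.05, as had 11.5% and 6.03% of all genes. After adjustment, 0.021%, 0.0% and 0.0491% of all genes passed in EA1, EA2 and EA3. With no filter, Adamts4 and Mmp10 passed in EA2, as did Mmp10 without day 2. Without day 3, Adamts9 passed in EA1 and EA3. The EA3 call of Mmp10 was lost without day 1, without day 5 and with library size alone. DMSO cultures changed over days too. In EA3, Mmp13 rose in DMSO with a slope of 2.27 (SE 0.59, adjusted p = 0.0435) and Adamts4 with 1.01 (SE 0.26, adjusted p = 0.042). These 2 of 23 members stood against 6.1% of all genes. In EA1 and EA2, none passed in the main edgeR fit and 3 and 4 members had an unadjusted p below 0.05, as had 17.1% and 1.91% of all genes. After adjustment, 1.83% and 0.0% of all genes passed there. With no filter, Adamts1, Mmp13 and Timp3 passed in EA1, Mmp10 and Mmp13 in EA2, and Adamts1, Mmp10 and Mmp3 were added in EA3. The DMSO calls of Mmp13 and Adamts4 in EA3 were lost without day 1, day 2 or day 5. The slope of the effect and the slope in DMSO share the DMSO libraries.

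Other genes of pericellular proteolysis were described from lists written with earlier results of these data known. Of 27 other proteases, such as ADAMs, cathepsins and plasminogen activators, 18 were tested, with 6 higher and 1 lower in EA1, 2 higher and 3 lower in EA2 and 3 higher and 3 lower in EA3. The shares of all genes tested in EA1, EA2 and EA3 were 19.0, 13.0 and 17.5% higher and 14.6, 11.3 and 15.1% lower. Adam10, a sheddase of membrane proteins, had a log2 fold change of 1.56 in EA1 (SE 0.17, adjusted p = 2.66e-05), from 217 ± 7.16 to 651 ± 129 CPM (SD, n = 4). Adam15, a related membrane protease, rose by 0.78 in EA1 (SE 0.13, adjusted p = 0.000678). Ctsl, the lysosomal cathepsin L, changed by -0.99 in EA2 (SE 0.14, adjusted p = 0.000274), and Plau, the urokinase plasminogen activator, by -1.47 in EA2 (SE 0.25, adjusted p = 0.0008). Bmp1, which removes the carboxyl propeptide of procollagens, changed by 0.87 in EA3 (SE 0.15, adjusted p = 0.000939), and Adam19 by -1.29 in EA3 (SE 0.23, adjusted p = 0.00181).

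Of 19 activators, receptors and other inhibitors, 13 were tested, with 3 higher and 2 lower in EA1, 1 higher and 5 lower in EA2 and 1 higher and 3 lower in EA3, beside the same shares of all genes tested. Cst3, the cysteine protease inhibitor cystatin C, changed by 0.89 in EA1 (SE 0.18, adjusted p = 0.00254), and Pcsk5, a proprotein convertase, by 2.05 in EA1 (SE 0.42, adjusted p = 0.00424). Pcsk6, another convertase, fell in EA2 and EA3, with log2 fold changes of -2.88 in EA2 (SE 0.36, adjusted p = 8.92e-05) and -1.88 in EA3 (SE 0.32, adjusted p = 0.000718). Serpinb2, an inhibitor of urokinase, fell as well, with -5.37 in EA2 (SE 0.73, adjusted p = 0.000159) and -2.63 in EA3 (SE 0.72, adjusted p = 0.0134).

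Of 6 ADAMTS-like genes, whose proteins lack the protease domain, 4 were tested, with 1 higher and 1 lower in EA1, 1 higher and 2 lower in EA2 and 1 higher and 1 lower in EA3, again beside those shares. Adamtsl3 fell, with -1.21 in EA1 (SE 0.21, adjusted p = 0.000845) and -1.08 in EA3 (SE 0.21, adjusted p = 0.00187). Adamtsl4 rose, with 0.99 in EA1 (SE 0.29, adjusted p = 0.0196), 1.79 in EA2 (SE 0.29, adjusted p = 0.000596) and 1.20 in EA3 (SE 0.28, adjusted p = 0.00617). Papln, papilin, fell by 2.99 on the log2 scale in EA2 (adjusted p = 0.00163), from a mean of 1.53 CPM to 0.178 CPM, which is below the floor. The median log2 fold changes in EA1, EA2 and EA3 were 0.39, 0.00 and 0.18 for the other proteases, -0.09, -0.85 and -0.20 for the second list and 0.59, -0.29 and 0.28 for the ADAMTS-like genes, with the median over all genes given above.

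At the floor of 3 counts, 10 members had no library above it: the collagenase genes Mmp1A and Mmp1B, which are closely related to each other, Mmp7 (matrilysin), Mmp20 (enamelysin), Mmp21, Adamts3, Adamts8, Adamts18, Adamts19 and Adamts20. No fold is given for them. At this depth, a level below 0.53 CPM was not detectable in every library. The other 6 untested members were Adamts13, Adamts17, Mmp9, Mmp25, Mmp27 and Timp4. Mmp9, a gelatinase typical of leukocytes, had 11, 7, 11 and 5 counts in DMSO and 2, 4, 9 and 5 with alectinib in EA3, and at most 2 in a library of the other lines. Adamts13, which cleaves von Willebrand factor, had 1, 3, 2 and 4 counts in DMSO and 4, 8, 5 and 15 with alectinib in EA3. Mmp27 reached 8 counts and Mmp25, a lipid-anchored protease, 5, both in alectinib libraries of EA3.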

How the data were processed

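RNA of the 3 murine lines was sequenced as paired reads from a TruSeq stranded mRNA kit. The deposited values are raw counts per gene. They came from the counting built into STAR, which the authors also used for alignment to mm10 after FastQC and bbduk, and the strand column and annotation are not given in the sources used here. Of 55415 symbols in the table, 24 were date numbers that name no gene (0.129% to 0.201% of counts) and were left out. The members, lists and rules were chosen with earlier results of these data known. Counts were fitted in R 4.3.3 with edgeR 4.0.16 (TMM, filterByExpr by line and treatment, quasi-likelihood test, Benjamini-Hochberg over all genes tested, threshold 0.05), blocked on line and day, and summarised in Python 3.11.15. The block follows from the label, since both libraries of a line and day share the day of culture. The deviations of the 12 pairs from their group means correlated from -0.3 to 0.549 across genes. All values of a member were printed for those called in all 3 lines, those whose effect differed between lines and the 5 with the highest mean CPM, and of each other list the 2 called genes with the smallest p-value in a line. Alternatives were DESeq2 1.42.0, edgeR with size factors of DESeq2 or with unscaled library sizes, no filter, no block, each line fitted alone, all 26 libraries and each day left out. No 2 libraries of a group agree within sampling noise, with a chi-square per gene of at least 9.51. Log2 ratios per day used a pseudocount of 0.5 CPM. Intervals of counts and floors cover counting error only, and those of fitted differences the spread between days. A detail of the lines' origin is not reported here. Gene positions and exon lengths came from GENCODE M21 on GRCm38, and promoter windows from RefSeq.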

Additional observations from a re-analysis of the deposited data

Results flagged for a closer look

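A library that stood apart from the other 3 of its line and treatment by Dixon's criterion at 95% was found 10 times among 92 groups of 4 libraries, and chance gives about 1 in 20. Adamts1 in EA3 alectinib was high on day 3, at 135 CPM against 86.9 to 90.8 on the other days. Adamts14 in EA2 alectinib was high on day 1, at 23.9 CPM against 10.1 to 12.3 on the other days. Adamts2 in EA2 DMSO was high on day 3, at 4.31 CPM against 2.06 to 2.32 on the other days. Adamts2 in EA3 alectinib was high on day 5, at 8.55 CPM against 0.37 to 1.6 on the other days. Adamts6 in EA3 DMSO was high on day 3, at 8.44 CPM against 2.31 to 3.23 on the other days. Mmp14 in EA1 alectinib was low on day 1, at 676 CPM against 839 to 852 on the other days. Mmp14 in EA2 alectinib was high on day 5, at 212 CPM against 147 to 155 on the other days. Timp2 in EA1 alectinib was high on day 5, at 1590.4 CPM against 1322 to 1346 on the other days. Timp3 in EA1 alectinib was high on day 1, at 396 CPM against 249 to 264 on the other days. Timp3 in EA3 alectinib was high on day 3, at 346 CPM against 209.6 to 229 on the other days. Library days are not repeats of 1 time point, so that a change with time enters these gaps.

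The alectinib effect differed between lines, by a test of the difference itself, for Adamts14 (adjusted p = 0.0433), Adamts2 (adjusted p = 0.000747), Adamts4 (adjusted p = 0.0139), Mmp12 (adjusted p = 0.0452), Mmp19 (adjusted p = 0.0172) and Mmp24 (adjusted p = 0.0456). Mmp12 passed the low-count filter only with the alectinib libraries counted and supports nothing here. Without day 2 or without day 3, all but Adamts2 lost the call.

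The alectinib library labelled EA3 day 7, which entered no comparison, held some of the members printed in full, which were chosen for their response to alectinib, above the highest EA3 DMSO library of days 1 to 5. Adamts14 stood at 11.1 CPM there, at 52.5 CPM in the DMSO library labelled EA3 day 7, and at no more than 6.86 CPM in EA3 DMSO. Adamts2 stood at 2.45 CPM there, at 1.26 CPM in the DMSO library labelled EA3 day 7, and at no more than 0.264 CPM in EA3 DMSO. Adamts4 stood at 76 CPM there, at 678 CPM in the DMSO library labelled EA3 day 7, and at no more than 72.3 CPM in EA3 DMSO. Adamts5 stood at 49.8 CPM there, at 0.504 CPM in the DMSO library labelled EA3 day 7, and at no more than 4.78 CPM in EA3 DMSO. Adamts6 stood at 11.8 CPM there, at 6.55 CPM in the DMSO library labelled EA3 day 7, and at no more than 8.44 CPM in EA3 DMSO. Mmp11 stood at 90.0 CPM there, at 35 CPM in the DMSO library labelled EA3 day 7, and at no more than 33.4 CPM in EA3 DMSO. Mmp19 stood at 17.9 CPM there, at 8.94 CPM in the DMSO library labelled EA3 day 7, and at no more than 12.5 CPM in EA3 DMSO. Timp2 stood at 1725 CPM there, at 524 CPM in the DMSO library labelled EA3 day 7, and at no more than 503 CPM in EA3 DMSO. Timp3 stood at 368 CPM there, at 26.6 CPM in the DMSO library labelled EA3 day 7, and at no more than 27.4 CPM in EA3 DMSO. Adamts4 and Adamts14 lay below the DMSO library of the same label. Both libraries correlated better with EA2 than with EA3, and the DMSO library labelled EA3 day 7 held 0.63 CPM of Mmp15, which ran from 1.8 to 3.13 in EA2 and from 17.3 to 37.2 in EA3. Whether the label is right was not tested.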

How the results depend on the processing

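Of the 39 called fold changes of members printed in full, 409 of 426 alternative values kept direction and call, 17 lost the call and 0 reversed. By over 1.5 times on the linear scale, 10 of the 39 moved under an alternative, and those log2 values follow. With DESeq2, Adamts5 in EA1 stood at 8.15. With all 26 libraries, Adamts2 in EA3, Mmp10 in EA3, Mmp12 in EA3 and Mmp13 in EA3 stood at 2.77, -3.56, 3.27 and -4.68. Without the block, Adamts1 in EA3 stood at 1.2. Without day 1, Mmp10 in EA2, Mmp10 in EA3, Mmp13 in EA2, Mmp13 in EA3 and Mmp24 in EA2 stood at -7.54, -3.42, -7.11, -4.56 and 3.87. Without day 2, Adamts1 in EA3 stood at 1.5. Without day 3, Adamts1 in EA1, Adamts1 in EA3, Adamts2 in EA3, Mmp10 in EA2 and Mmp13 in EA2 stood at 4.14, 2.83, 4.68, -5.59 and -5.3. Without day 5, Adamts2 in EA3, Mmp10 in EA2, Mmp10 in EA3, Mmp12 in EA3 and Mmp13 in EA2 stood at 3.04, -5.46, -2.05, 7.72 and -5.18. Leaving out a day gave 17 to 24 members called in EA1, 13 to 15 in EA2, 14 to 18 in EA3, 1 to 7 with an effect that differed between lines and 13 to 18 that differed in DMSO. It gave 0 to 1, 0 to 1 and 0 to 2 for the slope of the effect and 0, 0 and 0 to 2 for the slope in DMSO, in EA1, EA2 and EA3. Counting only members that pass the filter in DMSO, an alternative added after the data were seen, gave 18, 14 and 15 called members and 5 between lines. EA3 fitted alone gave 11 of 19 members. The test between lines gave 12 with DESeq2, 2 with all 26 libraries and 19 with no filter. With no filter, the slope of the effect gave 2 in EA2, and the slope in DMSO gave 3, 2 and 5. Library size alone gave 0 for the slope of the effect and 1 for the DMSO slope in EA3. Shares of all genes were not counted with days left out or with these other fits, so that none can be set beside these numbers. The cause was not tested. Without the block that pairs libraries by line and day, 22, 13 and 18 members were called in EA1, EA2 and EA3 and 5 between lines, of which 3 (Adamts2, Adamts4 and Mmp12) were among the 6 of the blocked fit. With the day as a block, 19 members differed in DMSO, with Adamts7 and Mmp10 added. Among log2 fold changes that were not called, Adamts14 in EA1 turned to 0.0369 with library size alone, and in EA3 to -0.424 with all 26 libraries. Leaving out a day gave -0.313 to 0.383 for Adamts14 in EA1 and -0.176 to 0.339 in EA3, -0.226 to 0.447 for Mmp19 in EA3 and -0.0545 to 0.639 for Mmp24 in EA1, each a range that crosses 0.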
